A study of Homo sapiens with 6 samples.

Results

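The antioxidant enzymes and the control genes of NRF2 were compared between control and cytoglobin-overexpressing colon cancer cells. The 36 gene symbols were chosen by function, with earlier results of these data known. They cover the superoxide dismutases, catalase, peroxiredoxins, glutathione peroxidases, thioredoxins, glutaredoxins, methionine sulfoxide reductases, glutathione reductase, 3 further genes induced by NRF2 (NQO1, GSTP1 and OSGIN1), and NRF2 itself with its regulators. They matched 37 of the 40173 gene identifiers in the deposited table, because SOD2 is listed under a pair of identifiers. Of these, 34 had enough counts to be tested, and SOD3, GPX7 and the second SOD2 identifier did not. The genes took between 0.548% and 0.588% of the counts of each library.

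Superoxide dismutases turn superoxide into hydrogen peroxide, which catalase, the peroxiredoxins and the glutathione peroxidases then remove. The peroxiredoxins are recharged by thioredoxin and thioredoxin reductase, and the glutathione peroxidases by glutathione and glutathione reductase. The transcription factor NRF2, encoded by NFE2L2, switches on many of these genes through antioxidant response elements: KEAP1 marks NRF2 for degradation, small Maf proteins such as MAFG pair with it on DNA, and BACH1 occupies the same elements as a repressor. Cytoglobin (CYGB) is a haem protein of the globin family that has been linked to the handling of reactive oxygen species, so the comparison asks whether these genes differ in cells that make more of it.

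RNA was sequenced from HCT116, a human colorectal cancer cell line. MOCK cells received a control lentivirus and are labelled wild type, and CYGB cells received a lentivirus with the CYGB coding region fused to a FLAG tag, labelled CYGB overexpression. Both were stable populations selected with puromycin, the transgene is expressed constitutively, and no drug, inducer of oxidative stress or time course was part of these 6 libraries. Each group had 3 libraries, described as biological replicates. Nothing further says how the replicates were separated, so p-values measure the spread between these libraries.

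Counts assigned to genes totalled 47193496 to 53006853 in MOCK and 50117465 to 53531777 in CYGB libraries. CYGB, the gene that was introduced, had 10, 28 and 34 counts in MOCK against 34935, 27681 and 32333 in CYGB libraries, so every library matched its label. Summed epithelial markers lay between 2620 and 2910 CPM (counts scaled to library size) in MOCK and between 2360 and 3000 CPM in CYGB. KRT8 was the largest part of this sum, at 1420 to 1970 CPM, followed by KRT18 at 459 to 580 CPM. EPCAM was at 159 CPM in CYGB replicate 3 and at 306 to 341 CPM in the other libraries. KRT20, VIL1, CEACAM5 and LGR5 had at most 40 counts in any library. Summed fibroblast markers were at 45.4 to 54.1 CPM over the 6 libraries, nearly all of it COL1A1, leukocyte markers were at 11.0 to 25.9 CPM, nearly all of it CD68, and endothelial markers were at 0.933 to 2.28 CPM. CDX1, a listed epithelial marker, was not found in the deposited table, and no other listed marker was at 0 in every library.

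To compare levels between genes, counts were divided by transcript length and scaled to a common library total, which gives TPM, a level per length. PRDX1, the main cytosolic peroxiredoxin, was the most abundant of the genes, with 2200, 1750 and 1850 TPM in MOCK against 1500, 1800 and 1730 in CYGB. GSTP1, which joins glutathione to electrophiles, followed at 1150 to 1290 TPM. No library of GSTP1 reached the lowest library of PRDX1. In all, 15 of the 37 gene identifiers were at 100 TPM or more and 4 were under 1 TPM on this scale.

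Thioredoxin (TXN, 653 to 770 TPM) headed a chain of neighbours that overlapped: TXN with SOD1 (562 to 676 TPM), SOD1 with PRDX2 (481 to 607 TPM) and PRDX2 with PRDX5 (497 to 606 TPM). PRDX3, the mitochondrial peroxiredoxin, stood apart from its neighbours at 418 to 466 TPM. PRDX6 (309 to 334 TPM), NQO1 (262 to 344 TPM), TXNRD1 (240 to 283 TPM) and PRDX4 (206 to 322 TPM) overlapped in a chain and were all above GSR (151 to 173 TPM). Over the whole order, the 6 libraries of a gene lay entirely above those of the next gene in 8 of 36 neighbouring pairs.

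The regulators of NRF2 lay well below the most abundant enzymes. KEAP1 lay at 51.9 to 102 TPM, NFE2L2 at 31.0 to 78.0 TPM, MAFG at 21.2 to 46.1 TPM and BACH1 at 10.3 to 16.1 TPM. Their level per length, summed, was 168 ± 15.0 TPM in MOCK and 191 ± 32.3 TPM in CYGB (SD, n = 3). The peroxiredoxins with SRXN1 summed to 4140 ± 170 TPM in MOCK and 3910 ± 97.2 TPM in CYGB (SD, n = 3).

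**Figure D1:**
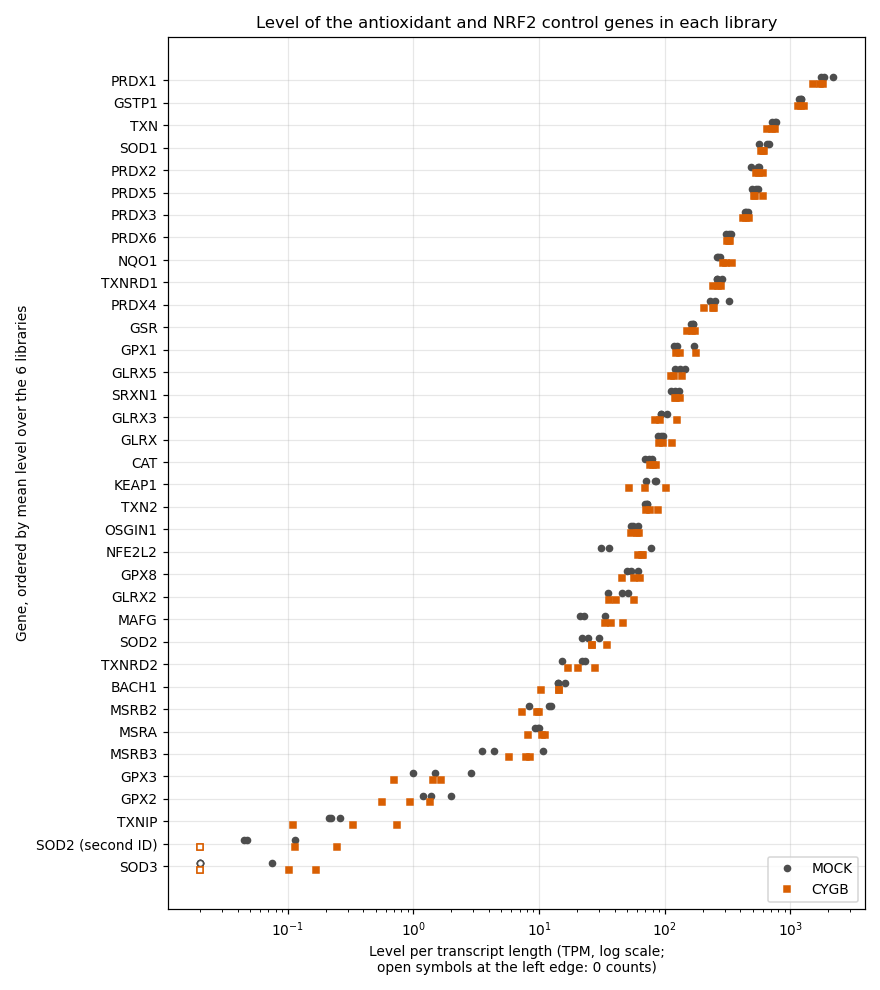
Level of each gene per transcript length in the 6 libraries, on a log axis, with MOCK as circles and CYGB as squares; genes are ordered by their mean, open symbols are libraries with 0 counts, and GPX7 is left out because all its counts are 0. PRDX1 and GSTP1 lie above 1000 TPM, the NRF2 regulators lie between 10.3 and 102 TPM, and the circles and squares of most genes overlap.

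At the lower end were genes that these cells hardly expressed. GPX7, a peroxidase of the endoplasmic reticulum, had 0 counts in all 6 libraries, where fewer than 3 counts per library could have been missed. SOD3, the secreted dismutase, had 0, 0 and 3 counts in MOCK against 4, 0 and 7 in CYGB. TXNIP, which binds and inhibits thioredoxin, had 16, 17 and 20 counts in MOCK against 25, 8 and 30 in CYGB. GPX3, the glutathione peroxidase of plasma, had 31 to 70 counts, and GPX2, the form known from the gut epithelium, had 16 to 50 counts. The 95% intervals of the CYGB to MOCK ratio reached from 0.322 to 1.24 for GPX2, from 0.378 to 1.32 for GPX3 and from 0.487 to 2.79 for TXNIP. The SE of the log2 fold change of these 3 genes was 1.90, 2.03 and 1.93 times the SE that counting error alone would give, so both the few counts and the spread between libraries entered it.

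Each gene of CYGB cells was compared with MOCK in a fit over the whole table (edgeR, quasi-likelihood). The threshold of the study's methods is an unadjusted p of at most 0.01 with a ratio of at least 2 or at most 0.5. No tested gene of the set passed it (0 of 34), where 0.565% of all 19987 tested genes did. After Benjamini-Hochberg adjustment over all genes, 0 of 34 had an adjusted p under 0.05, against 0.055% of all genes. At an unadjusted p under 0.05 there was 1 gene of 34, MAFG, against 4.54% of all genes. DESeq2 also placed 0 of 34 past the threshold (1.32% of all genes), 0 of 34 at an adjusted p under 0.05 (0.543% of all genes) and 1 of 34 at an unadjusted p under 0.05 (6.14% of all genes). These shares of the 34 genes are near the background.

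The direction of the differences was split, with 16 genes above and 18 below 0, and the median log2 fold change was -0.0062, beside -0.0070 over all genes tested. Individual values ran from -0.66 for GPX2 to 0.63 for MAFG, with adjusted p between 0.963 and 0.999 by edgeR. A missed threshold does not show that a gene stayed the same, so the 95% interval of each ratio was read as well. For 27 of 34 genes the whole interval lay within 2-fold in either direction, and for 23 of 34 within 1.5-fold. The 7 genes with wider intervals were GPX2, GPX3, TXNIP, GLRX2, MSRB3, NFE2L2 and MAFG. The libraries were made from bulk RNA, so fewer cells with an mRNA and less of it per cell could not be told apart.

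**Figure D2:**
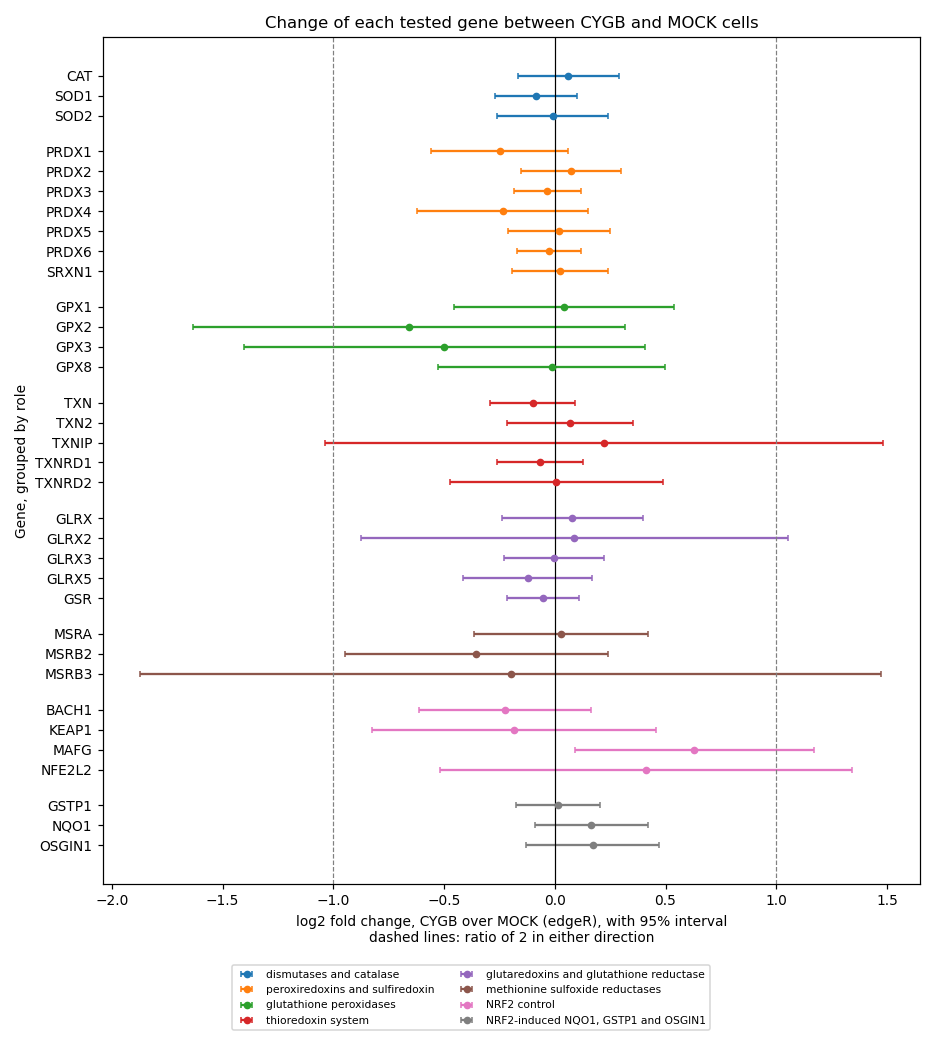
The log2 fold change of CYGB over MOCK for each of the 34 tested genes (points) with its 95% interval (bars), grouped by role; dashed lines mark a ratio of 2 in either direction. Intervals of most genes lie between the dashed lines and include 0, and MAFG is the gene whose interval lies wholly above 0.

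Neither the tested dismutases nor catalase differed beyond the spread of the libraries. SOD1, the cytosolic copper-zinc dismutase, had 289, 322 and 335 CPM in MOCK against 299, 298 and 295 in CYGB. SOD2, the mitochondrial manganese dismutase, had 40.6, 35.3 and 38.0 CPM in MOCK against 38.4, 36.1 and 38.6 in CYGB. The groups overlapped for both, with log2 fold changes of -0.086 (SE 0.076) and -0.0097 (SE 0.10). CAT, which breaks down hydrogen peroxide in peroxisomes, had 79.2, 81.7 and 87.7 CPM in MOCK against 81.8, 83.5 and 94.1 in CYGB, a log2 fold change of 0.062 (SE 0.093). All 3 intervals lay within 1.5-fold.

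PRDX1 (ENSG00000117450, chr1:45511036-45523047 on GRCh38, minus strand) had the largest difference among the peroxiredoxins. It had 1160, 895 and 943 CPM in MOCK against 746, 881 and 898 in CYGB. MOCK replicate 1 was the highest library and CYGB replicate 1 the lowest, and the other 4 lay within 881 to 943 CPM. The log2 fold change was -0.25 (SE 0.13, edgeR adjusted p = 0.963), and with 1 library left out it lay between -0.32 and -0.12.

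PRDX4, the peroxiredoxin of the endoplasmic reticulum, had 120, 166 and 128 CPM in MOCK against 122, 101 and 129 in CYGB, a log2 fold change of -0.24 (SE 0.16). MOCK replicate 2 was the highest and CYGB replicate 2 the lowest library, and the other 4 libraries lay between 120 and 129 CPM. The remaining peroxiredoxins were tighter. PRDX3 (log2 fold change -0.033, SE 0.063) and PRDX6 (-0.026, SE 0.059), which uses glutathione rather than thioredoxin, spanned no more than 1.08-fold over all 6 libraries. PRDX2 was at 0.072 (SE 0.093) and PRDX5 at 0.020 (SE 0.095). SRXN1, the sulfiredoxin that repairs over-oxidised peroxiredoxins and a known NRF2 target, had 184, 156 and 167 CPM in MOCK against 181, 164 and 170 in CYGB, a log2 fold change of 0.022 (SE 0.089).

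Among the glutathione peroxidases, GPX1, the cytosolic selenoenzyme, had 92.0, 66.9 and 62.8 CPM in MOCK against 92.6, 63.6 and 71.8 in CYGB. Replicate 1 was high in both groups, and the log2 fold change was 0.040 (SE 0.20). GENCODE 29 types GPX1 as a polymorphic pseudogene. GPX8, of the endoplasmic reticulum membrane, had 38.4 to 61.4 CPM and a log2 fold change of -0.015 (SE 0.21). GPX2 had 50, 37 and 32 counts in MOCK against 36, 16 and 25 in CYGB, so the groups overlapped, and its log2 fold change of -0.66 had an SE of 0.40. GPX3 had 70, 35 and 42 counts in MOCK against 34, 42 and 31 in CYGB (-0.50, SE 0.37).

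No gene of the thioredoxin system had an unadjusted p under 0.05 (0 of 5 by edgeR, against 4.54% of all genes). TXN had 351, 337 and 314 CPM in MOCK against 333, 306 and 295 in CYGB, with overlapping groups and a log2 fold change of -0.10 (SE 0.079). TXNRD1, the cytosolic thioredoxin reductase, had 471, 486 and 509 CPM in MOCK against 426, 490 and 483 in CYGB (-0.067, SE 0.079). The mitochondrial pair, TXN2 and TXNRD2, had log2 fold changes of 0.069 (SE 0.12) and 0.0068 (SE 0.20). TXNIP had a log2 fold change of 0.22 with an SE of 0.52.

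GSR, which regenerates glutathione, had 281, 274 and 264 CPM in MOCK against 266, 273 and 251 in CYGB, a log2 fold change of -0.054 (SE 0.067). The glutaredoxin GLRX (0.079, SE 0.13) and the iron-sulfur cluster glutaredoxins GLRX3 (-0.0028, SE 0.093) and GLRX5 (-0.12, SE 0.12) had intervals within 1.5-fold. GLRX2, a mitochondrial glutaredoxin, did not: it had 13.8, 31.2 and 31.8 CPM in MOCK against 38.7, 20.9 and 22.0 in CYGB. Its libraries spread 2.80-fold with both groups overlapping (0.088, SE 0.40). TROVE2 overlaps GLRX2 on the opposite strand and had 946, 6435 and 713 counts in MOCK against 1237, 705 and 2218 in CYGB. Whether counting used the strand is not given in the sources used here, and the part of TROVE2 in the spread of GLRX2 was not tested.

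The methionine sulfoxide reductases repair oxidised methionine. MSRA had 7.18, 7.08 and 7.43 CPM in MOCK against 8.0, 7.92 and 6.20 in CYGB (log2 fold change 0.027, SE 0.16). MSRB2, of mitochondria, had 11.3, 11.2 and 6.79 CPM in MOCK against 8.26, 8.13 and 6.56 in CYGB (-0.35, SE 0.24), with MOCK replicate 3 inside the range of CYGB. MSRB3 had 1022, 339 and 267 counts in MOCK against 290, 326 and 881 in CYGB. A single high library in each group set its spread of 4.17-fold, the widest of the set, and its log2 fold change was -0.20 (SE 0.69).

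MAFG (ENSG00000197063, chr17:81918270-81927714, minus strand) was the gene with the smallest p. It had 48.6, 55.6 and 78.4 CPM in MOCK against 114, 88.6 and 80.1 in CYGB. In CPM, all 3 CYGB libraries were above all 3 MOCK libraries, although CYGB replicate 3 and MOCK replicate 3 differed by little. Per length the groups overlapped, with MOCK replicate 3 at 33.4 TPM and CYGB replicate 3 at 33.3 TPM. CPM averaged 60.9 ± 15.6 in MOCK and 94.3 ± 17.7 in CYGB (SD, n = 3), a log2 fold change of 0.63 (SE 0.22), or a ratio of 1.55 with a 95% interval from 1.06 to 2.25. By edgeR the adjusted p was 0.963, and DESeq2 gave 0.590. With 1 library left out the log2 fold change lay between 0.47 and 0.85, with adjusted p between 0.607 and 1.00. SIRT7 overlaps MAFG on the same strand and had 3194, 2798 and 2593 counts in MOCK against 3344, 3376 and 3490 in CYGB, not scaled to library size. MOCK replicate 1, the lowest library of MAFG, had the most SIRT7 counts in MOCK and the smallest library total (47193496). How counts in the overlap were shared between MAFG and SIRT7 is not given, and its part in the difference was not tested.

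NFE2L2 (ENSG00000116044, chr2:177227595-177392697, minus strand) had 46.3, 107 and 39.1 CPM in MOCK against 87.4, 88.0 and 80.3 in CYGB. The CYGB libraries lay close together, while MOCK replicate 2 was above them all and the other MOCK libraries were below them all. CPM averaged 64.0 ± 37.1 in MOCK and 85.2 ± 4.27 in CYGB (SD, n = 3), and the log2 fold change was 0.41 (SE 0.38, edgeR adjusted p = 0.963). Without MOCK replicate 2 the log2 fold change was 0.998 by edgeR, so the gene met the p limit of the threshold (unadjusted p = 0.000505, adjusted p = 0.291) and fell just short of the ratio of 2. Leaving out any other single library gave 0.16 to 0.45 (adjusted p 0.958 to 0.999). AGPS, which overlaps NFE2L2 on the opposite strand, had 3379, 4319 and 7373 counts in MOCK against 4066, 8068 and 6751 in CYGB, and its part was not tested.

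KEAP1 (ENSG00000079999, chr19:10486120-10503741, minus strand) had 113, 93.6 and 114 CPM in MOCK against 134, 66.6 and 82.0 in CYGB. CYGB replicate 1 was the highest of all libraries and the other CYGB libraries were the lowest. The log2 fold change was -0.18 (SE 0.26, edgeR adjusted p = 0.971), and it changed sign with CYGB replicate 2 left out (0.019). Without CYGB replicate 1 it was -0.52 (edgeR unadjusted p = 0.0177, adjusted p = 0.962). BACH1 had 48.1, 40.7 and 39.1 CPM in MOCK against 41.8, 37.5 and 30.1 in CYGB, with overlapping groups and a log2 fold change of -0.23 (SE 0.16).

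**Figure D3:**
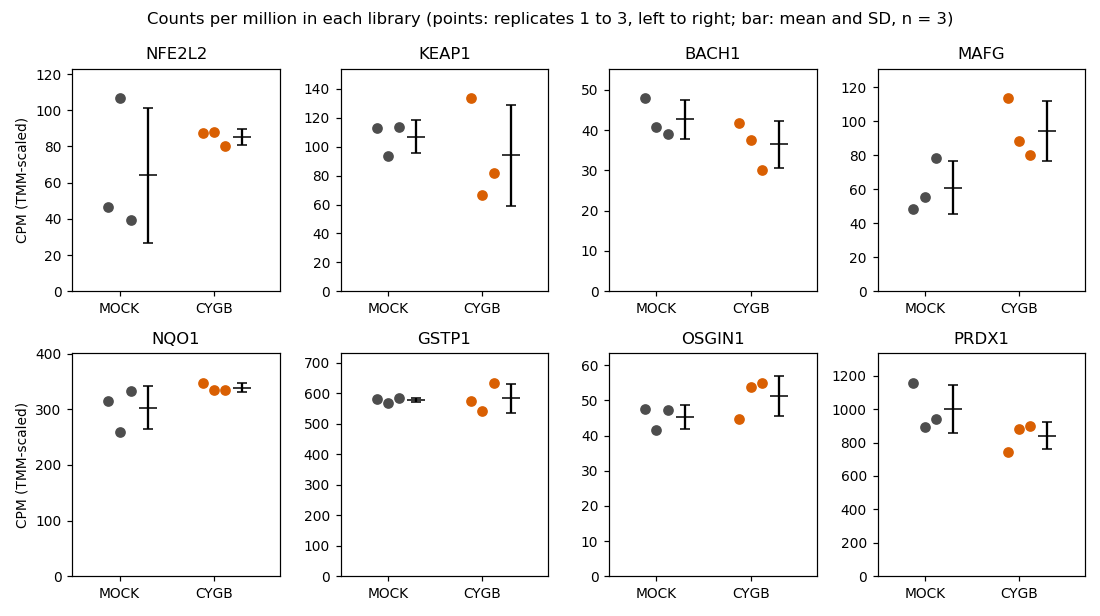
CPM (TMM-scaled, axes from 0) of 8 genes in each library, with points for replicates 1 to 3 from left to right and the mean with its SD beside them (n = 3). MAFG shows no overlap between groups (highest MOCK 78.4, lowest CYGB 80.1 CPM), and MOCK replicate 2 of NFE2L2 stands at 107 CPM.

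Of the genes induced by NRF2, NQO1 (ENSG00000181019, chr16:69706996-69726951, minus strand), a quinone reductase often used as a readout of NRF2, had 315, 259 and 333 CPM in MOCK against 348, 335 and 335 in CYGB. The groups did not overlap, by a margin between 333 and 335 CPM. Per length they lay at 262, 267 and 273 TPM in MOCK and at 306, 344 and 292 TPM in CYGB. The log2 fold change was 0.17 (SE 0.11, edgeR adjusted p = 0.963), the ratio was 1.12 with a 95% interval from 0.939 to 1.34, and leaving out MOCK replicate 2 reduced the log2 fold change to 0.065. MAFG and NQO1 were the 2 of 34 genes without overlap between groups in CPM, and 11.0% of all genes tested had none. GSTP1 had 581, 569 and 583 CPM in MOCK against 575, 540 and 635 in CYGB (log2 fold change 0.014, SE 0.077). OSGIN1, an inhibitor of growth induced by oxidative stress, had 47.5, 41.5 and 47.3 CPM in MOCK against 44.7, 53.8 and 55.1 in CYGB (0.17, SE 0.12), with CYGB replicate 1 inside the range of MOCK.

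Because NRF2 and MAFG act through a DNA element, promoters were searched for the core of the antioxidant response element, TGACNNNGC, on both strands. The windows ran from 250 bases before to 50 bases after each RefSeq gene start (GRCh38.p14). They were found for 29 of 36 genes, and PRDX1, PRDX6, SOD1, TXN2, GLRX3, GSR and MSRA were not matched. The core was in 5 of 44 windows (11.4%), belonging to GSTP1, TXNRD1, GPX2 and KEAP1, and in 13.3% of all 35116 windows. Of 32 further NRF2 target genes, 22 had windows, and 9 of their 31 windows (29%) held the core. The match nearest to the start in each of the 4 genes is shown with 10 flanking bases on each side, the 9 bases of the match in capitals, read on the strand that carries the core. Distances are from the RefSeq start to the first base of the match in the direction of the gene, whichever strand carries the core. The RefSeq start can differ from that of a GENCODE transcript.
GSTP1, chr11:67583736-67583764, plus strand, first base of the match 66 bases before the start: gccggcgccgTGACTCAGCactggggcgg
TXNRD1, chr12:104215761-104215789, minus strand, 8 bases before the start: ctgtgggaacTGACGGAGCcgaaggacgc
GPX2, chr14:64942849-64942877, plus strand, 122 bases before the start: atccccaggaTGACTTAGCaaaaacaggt
KEAP1, chr19:10502784-10502812, plus strand, 31 bases before the start: caggtcaccaTGACTAAGCagagccgggc
Among these 4 genes, log2 fold changes were 0.014 for GSTP1, -0.067 for TXNRD1, -0.66 for GPX2 and -0.18 for KEAP1, none past the threshold. NQO1, MAFG and SRXN1 held no match in these windows, which says nothing about elements farther away.

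The deposited table counts transcripts, so the same test was run on them. The genes had 237 transcripts in the table, of which 129 were tested. Of these, 1 passed the threshold of the methods, where 1.02% of the 66609 tested transcripts did, and 0 of 129 had an adjusted p under 0.05 by edgeR (0.015% of all). At an unadjusted p under 0.05 there were 4 of 129 transcripts (3.78% of all), 2 higher and 2 lower in CYGB. DESeq2 placed 1 transcript past the threshold (2.26% of all), 0 at an adjusted p under 0.05 (1.14% of all) and 6 at an unadjusted p under 0.05 (5.64% of all). These counts, too, are no larger a share than the background.

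The transcript past the threshold was KEAP1 ENST00000592055. It had 0, 1 and 0 counts in MOCK against 14, 12 and 352 in CYGB, so 1 library held most of its counts. The CYGB to MOCK ratio of summed counts, per library total, was 373, with an exact 95% interval from 66.5 to 14800 that covers counting error only. By edgeR the unadjusted p was 0.00998, just inside the threshold of 0.01, and the adjusted p was 0.954. Without CYGB replicate 3, 26 counts were left in CYGB and the transcript no longer passed, and it did not pass either without any 1 of the MOCK libraries. DESeq2 gave no p for it and instead placed GLRX3 ENST00000481034 past the threshold, an mRNA marked for nonsense-mediated decay with 547, 693 and 16 counts in MOCK against 23, 0 and 4 in CYGB.

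The other transcripts at an unadjusted p under 0.05 were MAFG ENST00000357736 and TXNRD2 ENST00000494454. The MAFG transcript held 94.3% to 98.3% of the counts of its gene, with 2168, 2854 and 3832 counts in MOCK against 5678, 4380 and 4000 in CYGB. TXNRD2 ENST00000494454 had 97, 66 and 36 counts in MOCK against 15, 28 and 31 in CYGB. Their adjusted p was 1.00 by edgeR.

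KEAP1 counts fell mainly on ENST00000393623 and ENST00000171111. The share of ENST00000393623 was 89.7%, 81.3% and 90.7% in MOCK and 93.0%, 64.6% and 54.4% in CYGB. The share of ENST00000171111 was 8.70%, 16.4% and 8.76% in MOCK and 5.68%, 33.4% and 34.5% in CYGB. CYGB replicates 2 and 3 thus differed from the other 4 libraries, and CYGB replicate 1 did not. In a two-sided exact permutation test of the share, p was 0.4 for both and 0.1 for ENST00000592055, and 0.4, 0.4 and 0.3 after adjustment over these 3 tests. A p of 0.1 is the smallest that 3 against 3 libraries can give. ENST00000592055 was taken for this test after the same counts had put it past the threshold, so its p is no separate support. The adjustment leaves out the shares of the other transcripts of the set, which were tested as well.

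These KEAP1 transcripts have different first exons, joined to the same second exon (chr19:10499395-10500080, minus strand, GENCODE 29 on GRCh38) and with the same start of the coding region at position 10500033, so their first exons lie in the 5′ untranslated region. ENST00000393623 and ENST00000171111 each have 6 exons and 1872 coding bases. ENST00000592055 is annotated as a shorter model, with 3 exons, 838 coding bases and 979 bases in all. The junctions are shown with the last 15 bases of the first exon in capitals and the first 15 bases of the second exon in lower case.
KEAP1 ENST00000393623, first exon chr19:10502697-10502896: CGCGGCCATGGCGGGgtccctgagtgccag
KEAP1 ENST00000171111, first exon chr19:10503241-10503741: TCCCCTACAGCCAAGgtccctgagtgccag
KEAP1 ENST00000592055, first exon chr19:10503093-10503186: GACCTGGGGGCTGAGgtccctgagtgccag
The first exons are 200, 501 and 94 bases long. Of all windows of 150 bases in each transcript, 7.88%, 18.0% and 11.1%, respectively, occur in no other transcript of KEAP1, so most windows of a transcript are shared with another. The KEAP1 match to the antioxidant response element core shown above lies within the first exon of ENST00000393623. It is thus before the RefSeq start but after the GENCODE start of this transcript.

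NFE2L2 was divided mainly between ENST00000397062, with 605 codons, and ENST00000397063, with 589 codons and another first exon. The shorter form, chosen here after its values were seen, took 7.12%, 23.8% and 18.5% of NFE2L2 counts in MOCK and 31.5%, 25.7% and 44.8% in CYGB. The groups did not overlap, but 4.16% of its 150-base windows were found in no other NFE2L2 transcript. In the permutation test of the share its unadjusted p was 0.1, the smallest that 3 against 3 libraries can give. Other transcripts of the set had the same p, among them PRDX1 ENST00000319248, PRDX5 ENST00000352435 and TXNRD2 ENST00000494454. Its own counts were 156, 1342 and 372 in MOCK and 1391, 1151 and 1893 in CYGB, with an edgeR adjusted p of 1.00. ENST00000397062 took 62.8% to 74.5% in MOCK and 52.0% to 71.8% in CYGB.

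BACH1 showed how far the division among transcripts moved between replicates. ENST00000286800 took 61.7%, 91.3% and 72.9% of BACH1 counts in MOCK and 22.9%, 58.0% and 99.9% in CYGB, while the gene as a whole spread 1.60-fold. Only 1.47% of its 150-base windows were found in no other BACH1 transcript. In contrast, the leading transcript of TXN held 99.3% to 99.4% of the counts, and that of PRDX6 98.6% to 98.9%. Over the 34 genes tested, 13 had a leading transcript with at least 90% of the counts in every library, and in 13 its share moved by more than 20 percentage points between libraries.

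**Figure D4:**
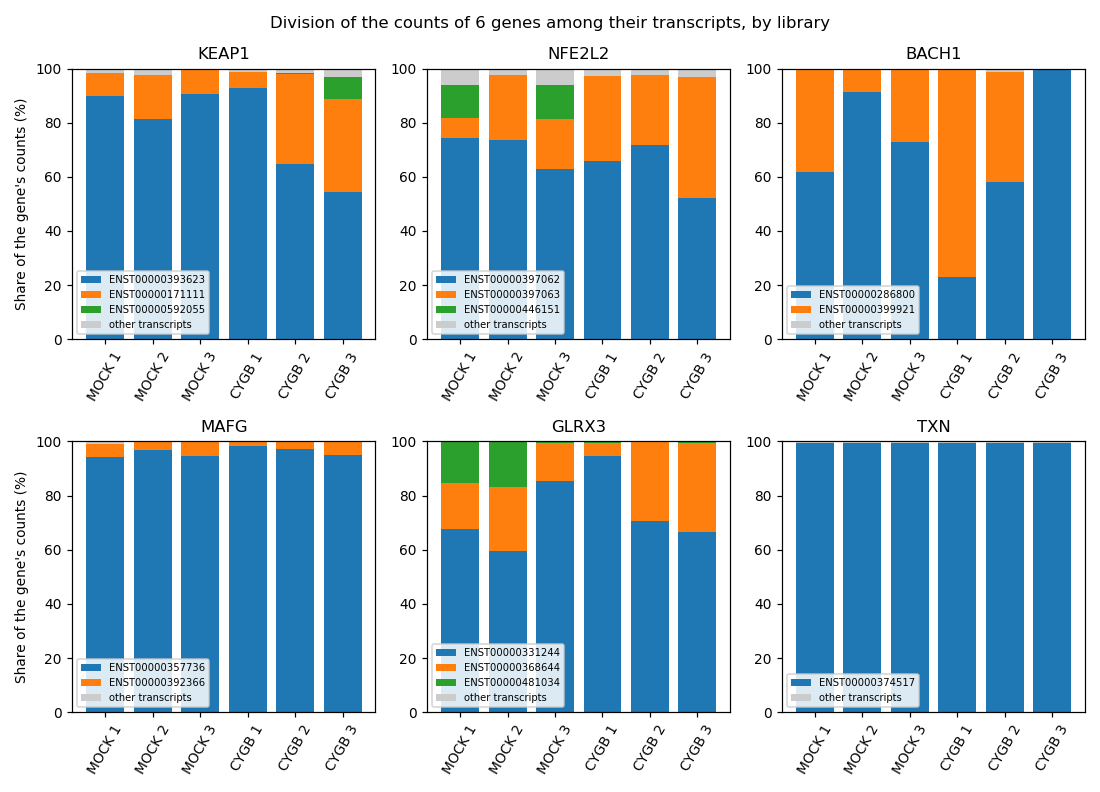
Share of the counts of 6 genes that fell on each of their most abundant transcripts (up to 3) and on the others, in percent, 1 bar per library. The leading KEAP1 transcript holds 93.0% in CYGB replicate 1 and 54.4% in CYGB replicate 3, BACH1 varies within both groups, and MAFG and TXN keep 1 leading transcript in all 6 libraries.

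The rest of the pathway was read from lists of its other genes. Of 32 further NRF2 target genes, 29 were tested and 0 passed the threshold, had an adjusted p under 0.05 or had an unadjusted p under 0.05 by edgeR. Of all genes tested, 0.565%, 0.055% and 4.54% did so. Of the 29 target genes, 18 were above and 11 below 0, with a median log2 fold change of 0.052. Values ran from -1.10 for ABCC2 (SE 0.71) to 0.46 for ABCC3, and GCLM was among those below 0 (-0.21, SE 0.18). The 3 of 29 without overlap between groups, near the 11.0% of all genes tested, were higher in CYGB: SQSTM1, a receptor for autophagy that binds KEAP1 (0.16, SE 0.073), GCLC, the catalytic subunit of the rate-limiting enzyme of glutathione synthesis (0.15, SE 0.075), and ABCC1, an exporter of glutathione conjugates (0.11, SE 0.071). GCLC had 5282, 5516 and 5197 counts in MOCK against 6024, 6033 and 6012 in CYGB. ABCC3, a related exporter, had 936, 799 and 687 counts in MOCK against 876, 1181 and 1362 in CYGB (0.46, SE 0.22), with overlapping groups. The adjusted p of each was 0.963.

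Of 18 other regulators of NRF2, all were tested and 0 passed the threshold or had an adjusted p under 0.05 by edgeR. An unadjusted p under 0.05 was found for 3 of 18, against 4.54% of all genes, and 5 of 18 had no overlap between groups, against 11.0% of all genes. PGAM5, a mitochondrial phosphatase that binds KEAP1, had 4704, 4802 and 2203 counts in MOCK against 1967, 1516 and 2290 in CYGB. MOCK replicate 3 lay with the CYGB libraries, and the log2 fold change was -1.05 (SE 0.34, adjusted p = 0.963). NFE2L3, a relative of NRF2, had 4489, 4668 and 4237 counts in MOCK against 3755, 3908 and 3644 in CYGB (-0.27, SE 0.092), and NFE2L1, another relative, had 12342, 14640 and 13667 counts in MOCK against 15117, 14760 and 16901 in CYGB (0.18, SE 0.070). Neither NFE2L3 nor NFE2L1 overlapped between groups in CPM. The other regulators without overlap were BACH2, a relative of BACH1 (0.19, SE 0.12), CREBBP, a histone acetyltransferase and coactivator (0.14, SE 0.076), and GSK3B, a kinase that marks NRF2 for degradation (-0.13, SE 0.077). The adjusted p of these 5 genes was 0.963.

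Of 20 other antioxidant and thiol genes, 19 were tested, and 0 passed the threshold or had an adjusted p under 0.05 by edgeR. An unadjusted p under 0.05 was found for 1 of 19, near the 4.54% of all genes, and 2 of 19 had no overlap between groups, near the 11.0% of all genes. The gene at an unadjusted p under 0.05 was SESN3, a sestrin. It had 902, 1052 and 1039 counts in MOCK against 802, 856 and 781 in CYGB (-0.31, SE 0.11), without overlap in CPM. GSS, which completes glutathione, had 2419, 2639 and 2352 counts in MOCK against 2686, 3065 and 4246 in CYGB (0.40, SE 0.17), again without overlap in CPM, and MSRB1, a selenoprotein relative of MSRB2, was at 0.12 (SE 0.12). All 11 genes of selenoprotein synthesis were tested, and 0 had an unadjusted p under 0.05 by edgeR, against 4.54% of all genes. The smallest p among them were those of LRP8, TRNAU1AP and SARS. LRP8, a receptor for selenium transport (-0.12, SE 0.077), was the 1 gene of 11 without overlap, near the 11.0% of all genes. TRNAU1AP, a binding protein of the selenocysteine tRNA, was at -0.20 (SE 0.13), and SARS, which charges that tRNA with serine, was at 0.18 (SE 0.13).

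**Figure D5:**
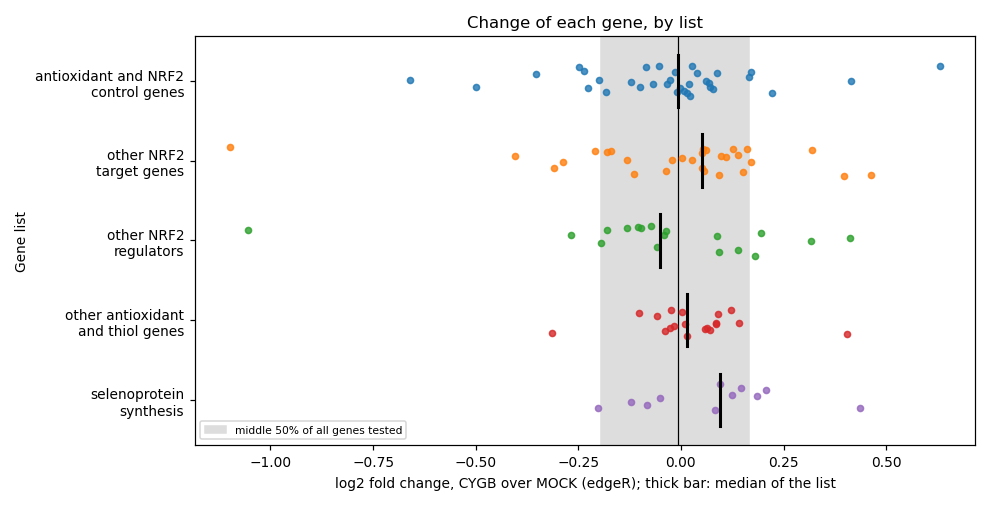
The log2 fold change of CYGB over MOCK for each tested gene of the antioxidant and NRF2 control set and of 4 further lists (points, spread vertically at random), with the median of each list as a thick bar and the middle 50% of all genes tested shaded (-0.19 to 0.17). The medians of all 5 lists lie inside the shaded band.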

How the data were processed

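RNA-seq of 3 MOCK and 3 CYGB libraries of HCT116 cells was analysed. The authors deposited raw counts per transcript from paired-end libraries, without normalization. The submitters' processing notes name HISAT2, HISAT, DESeq2 and hg19, without roles. The positions in the table are those of GENCODE 29 on GRCh38 for 99.5% of 151393 transcripts (234 of 237 of the genes described), so these are printed. The counting tool, its strand setting and the division of reads among isoforms are not given in the sources used here. Of 172678 transcripts, 21225 carry no gene. They made up 18.64% to 19.49% of each library and entered neither totals nor tests.

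Counts were summed per gene identifier. Genes and transcripts were kept with filterByExpr (minimum count 10), normalized by TMM and tested by glmQLFit and glmQLFTest in edgeR 4.0.16 (limma 3.58.1, R 4.3.3), CYGB against MOCK, without a block, with Benjamini-Hochberg adjustment over all features tested. SE and 95% intervals were derived from the log2 fold change and the quasi-likelihood statistic. CPM are TMM-scaled. DESeq2 1.42.0 was an alternative, with its size factors, no filter, a mean of at least 50 counts, a replicate block, each library left out in turn, the most abundant transcript alone, and transcripts without a gene included. The count of intervals within 2-fold was added after seeing the data. Steps were tested on simulated counts. Python 3.11.15, pandas 2.3.3, scipy 1.17.1 and matplotlib 3.10.9 were used for tables and figures.

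The genes and lists were written by hand and chosen with earlier results of these data known. Every gene of the set is named, in full where its groups did not overlap, where it passed the threshold or where its p was among the 6 smallest of the others; from further lists, those past the threshold and the 3 with the smallest p are named, and others without overlap were added after their values were seen. Totals per library were 47193496 to 53531777 counts. The common biological coefficient of variation between libraries was 36.6% for genes and 78.9% for transcripts. Intervals on counts and floors of 3 counts cover counting error only. Promoter sequences are those of RefSeq (GRCh38.p14) and transcript sequences those of GENCODE 29. Fold changes and tests of the authors were not used.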

Additional observations from a re-analysis of the deposited data

How the results depend on the processing

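Under every alternative run, 0 of the tested genes of the set passed the threshold or had an adjusted p under 0.05. Of 439 alternative log2 fold changes, 402 kept their sign and side of the threshold and 37 changed sign, in 17 genes. With 1 library left out, log2 fold changes ran from -0.0039 to 0.11 for CAT, -0.043 to 0.17 for GLRX, -0.25 to 0.27 for GLRX2, -0.073 to 0.038 for GLRX3, -0.12 to 0.23 for GPX1, -0.16 to 0.16 for GPX8, -0.052 to 0.073 for GSTP1, -0.52 to 0.019 for KEAP1, -0.031 to 0.14 for MSRA and -0.87 to 0.74 for MSRB3. They ran from -0.0031 to 0.12 for PRDX2, -0.043 to 0.082 for PRDX5, -0.060 to 0.045 for SOD2, -0.032 to 0.092 for SRXN1, -0.039 to 0.14 for TXN2, -0.10 to 0.61 for TXNIP and -0.14 to 0.12 for TXNRD2. The most abundant transcript alone gave -0.027 for GLRX2, 0.15 for GLRX3, 0.054 for MSRB3, -0.044 for TXN2 and -0.037 for TXNIP, and including transcripts without a gene gave 0.0019 for GLRX3. The cause of these changes was not tested.

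Over all genes, 113 passed the threshold and 11 had an adjusted p under 0.05. DESeq2 gave 263 and 108, and a mean of at least 50 counts gave 62 past the threshold, with fewer genes tested. With 1 library left out the counts were 125 to 177 past the threshold and 6 to 14 at an adjusted p under 0.05. The replicate block gave 78 genes past the threshold and 0 with an adjusted p under 0.05. Same-numbered libraries of the 2 groups correlated at 0.0294, 0.00521 and 0.031 in their deviations from the group means. Whether they shared a culture or a batch is not given, and values this low from 3 libraries per group cannot decide it.

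The count of 1 transcript past the threshold became 0 with a mean of at least 50 counts, with transcripts without a gene in the totals and with the replicate block. It was 0 to 3 with 1 library left out, where 961 to 1209 of the 72632 to 73431 transcripts tested passed. Without MOCK replicate 2 it was 3, and KEAP1 ENST00000592055 was not among them. The genes without overlap between groups numbered 3 to 10 of the set with 1 library left out, where 18.7% to 23.6% of all genes had none, with 10 reached without CYGB replicate 1. The genes with a 95% interval within 2-fold numbered 24 with the most abundant transcript alone and 26 to 29 under the other alternatives. SOD3 and GPX7 had too few counts to be tested. In the genes tested, the SE of the log2 fold change was 1.90 (GPX2) to 23.3 (PRDX1) times that from counting error alone.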
